A study of Mus musculus with 6 samples.

Results

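The expression of 40 genes of DNA replication and mitosis was examined in the cochlea of young and old C57BL/6 mice, in order to compare a set of genes that dividing cells transcribe between the ages. The members were a named list of genes whose products act in S phase or in mitosis, which were taken from the 25419 genes that the table holds after the FPKM values (fragments scaled to the length of the transcript and to the depth of the library) of all transcripts of a gene had been summed. All 40 were found, each as a protein-coding gene. C57BL/6 is an inbred strain that loses hearing early in life. The young mice were 1 month old and the old mice 12 months old, and no other treatment or allele is named in the labels for either group. RNA was taken from dissected cochlear basilar membranes, which the labels list under cochlea, tissue from 3 mice was pooled in each sample, and 3 young and 3 old samples were sequenced. The labels give no sex and do not say how the pools of an age were separated, so that the tests measure the spread between these pools.

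Cells that divide copy their DNA in S phase and separate it in mitosis, and most of the genes used here are transcribed mainly in those phases, under E2F factors for the genes of S phase and under the MuvB, B-Myb and FoxM1 proteins for the genes of mitosis. Hair cells, supporting cells and neurons of the mature mammalian cochlea are known as cells that no longer divide, whereas blood cell precursors, Schwann cells, macrophages, endothelial cells and bone cells can. Some members also have uses outside of division, such as Pcna in DNA repair. In a bulk sample, fewer dividing cells and less RNA per dividing cell cannot be told apart.

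The tissue markers were first examined. Hair cell markers were detected in all 6 samples, with summed levels over 10 genes of 272, 210 and 299 FPKM in the young and 149, 170 and 156 FPKM in the old samples. Of the 10, 4 were lower in old mice at the threshold (limma), against 3.81% of all genes. The 9 supporting cell markers reached 1004 to 1254 FPKM. Low FPKM values fell on steps, from which a depth of 12560000 to 15670000 fragments per sample was estimated. Young sample 1 stood apart from the other 5 samples for the genes described here. It held the highest of the 6 values for 27 of the 39 members that could be tested, against 13.1% of all 19465 genes tested. It lay at least 2-fold above the highest of the other 5 samples, on the scale of log2(FPKM + 0.1), for 9 members, which were Mki67, Top2a, Ccnb2, Birc5, Kif11, Prc1, Ube2c, Cdca8 and Uhrf1, against 1.06% of all genes. For Prc1, most of the value in young sample 1 was listed under a transcript of 291 nt, which was at 0 in the other 5 samples. Results are therefore given with and without this sample.

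The promoters of the members were compared, because many members had their highest level in the same sample and promoter sequence was not used to choose them. The windows were taken from RefSeq (GRCm38.p6) and hold 300 bases, with 250 before and 50 after the annotated start. Of the 40 members, 33 had a window, 35 windows in all. Each was searched on both strands for the CHR (cell cycle genes homology region, TTTGAA or TTTAAA), an element through which the MuvB complexes bind, for the core of E2F sites (TTCCCGC or TTGGCGC) and for the CCAAT box (CCAAT), which the factor NF-Y binds. An E2F match can begin inside a CCAAT box on the other strand and was then counted for both. A CHR match was found in 77.1% of the member windows and in 27.6% of all 32851 windows. It was found in 92% of the 25 windows of members that act in mitosis or control it, and in 40% of the 10 windows of S phase members. E2F matches were divided the other way, with 12% of the windows of the mitotic members and 50% of those of the S phase members, against 6.81% of all windows. The CCAAT box was found in 82.9% of the member windows and in 37.4% of all windows. A CHR and a CCAAT box occurred together in 65.7% of the member windows and in 10.7% of all windows. Among 87 further cell cycle genes, 70 had a window, and 42% of their 81 windows held a CHR match and 37% an E2F match. A match is a description of the letters in the window, and binding was not measured.

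**Figure D1:**
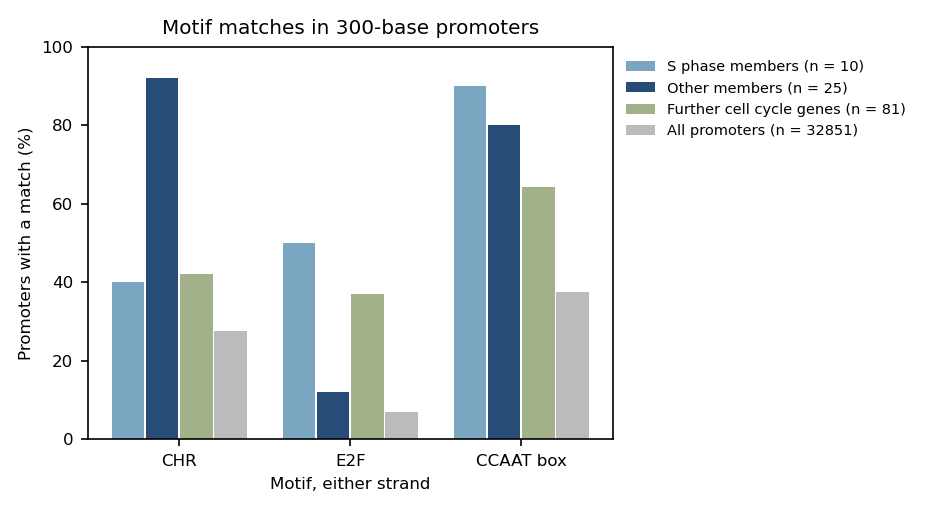
Share of 300-base promoter windows (y axis, percent) with a match on either strand to the CHR, E2F or CCAAT motif, for S phase members (10 windows), other members (25), further cell cycle genes (81) and all genes (32851). CHR matches were found in 92% of the windows of the other members and in 40% of those of the S phase members, and E2F matches in 12% and 50%.

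The windows of 4 members are shown in the direction of transcription, with matches on either strand in capitals. Mki67 and Top2a are shown because their levels in young sample 1 were far above the others, and Cdc20 and Mcm6 because these 2 members had all old values above all young values. Mki67 (chr7:135716330-135716629, minus strand) has 2 CHR matches, 1 E2F match and 3 CCAAT boxes, Top2a (chr11:99024140-99024439, minus strand) has 2 CHR matches and 6 CCAAT boxes, Cdc20 (chr4:118437294-118437593, minus strand) has 1 CHR match and 2 CCAAT boxes, and Mcm6 (chr1:128359656-128359955, minus strand) has 2 E2F matches and 2 CCAAT boxes and no CHR match.
Mki67: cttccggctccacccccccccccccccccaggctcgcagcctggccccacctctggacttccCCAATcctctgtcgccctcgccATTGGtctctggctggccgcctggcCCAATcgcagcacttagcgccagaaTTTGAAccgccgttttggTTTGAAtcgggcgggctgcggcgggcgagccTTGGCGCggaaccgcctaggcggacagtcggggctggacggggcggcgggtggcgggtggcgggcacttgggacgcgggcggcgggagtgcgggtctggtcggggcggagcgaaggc
Top2a: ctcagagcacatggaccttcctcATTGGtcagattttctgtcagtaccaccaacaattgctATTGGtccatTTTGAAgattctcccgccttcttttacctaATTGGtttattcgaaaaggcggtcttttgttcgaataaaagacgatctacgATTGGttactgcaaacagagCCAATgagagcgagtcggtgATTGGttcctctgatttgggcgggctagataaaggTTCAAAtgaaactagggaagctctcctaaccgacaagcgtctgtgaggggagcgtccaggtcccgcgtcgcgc
Cdc20: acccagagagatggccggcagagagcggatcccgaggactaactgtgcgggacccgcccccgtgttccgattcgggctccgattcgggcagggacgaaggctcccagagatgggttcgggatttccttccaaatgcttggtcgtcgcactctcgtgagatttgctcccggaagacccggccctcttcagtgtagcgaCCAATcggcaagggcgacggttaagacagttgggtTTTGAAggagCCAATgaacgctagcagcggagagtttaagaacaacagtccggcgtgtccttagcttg
Mcm6: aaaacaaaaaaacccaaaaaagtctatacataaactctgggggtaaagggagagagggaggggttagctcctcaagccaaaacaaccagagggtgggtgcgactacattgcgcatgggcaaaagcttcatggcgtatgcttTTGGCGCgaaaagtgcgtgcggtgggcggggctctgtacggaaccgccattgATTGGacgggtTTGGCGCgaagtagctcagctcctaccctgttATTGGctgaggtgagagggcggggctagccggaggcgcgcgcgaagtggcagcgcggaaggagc

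Between the ages, no member passed the threshold of the test. Of the 39 members with a mean of at least 0.1 FPKM, 0 rose and 0 fell with age at an adjusted p below 0.05 (limma on log2(FPKM + 0.1), Benjamini-Hochberg over all genes), whereas 5.65% of all genes were higher, 3.81% were lower and 9.45% passed in either direction. At an unadjusted p below 0.05, 3 members passed, Cdc20 and Mcm6 higher and Anln lower in old mice, against 27.8% of all genes. The smallest adjusted p of a member was 0.0927 (limma, Anln). By sign, 20 members were lower and 19 higher in old mice, as against 49% of all genes with a lower value. The median log2 change (old minus young) of the members was -0.02, and that of all genes tested was 0.01. Bub1, a kinase of the spindle checkpoint, was below the filter and was not tested.

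The groups did not overlap for 5 of the 39 members, against 33.7% of all genes. All old values were above all young values for Cdc20 and Mcm6, as for 17.6% of all genes, and below all young values for Ccne2, Cenpf and Anln, as for 16.1% of all genes. These 5 members had a two-sided exact permutation p of 0.1, the smallest that 3 against 3 samples can give. For Cenpf, the separation held for the sum of its transcripts and not for its longest transcript.

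**Figure D2:**
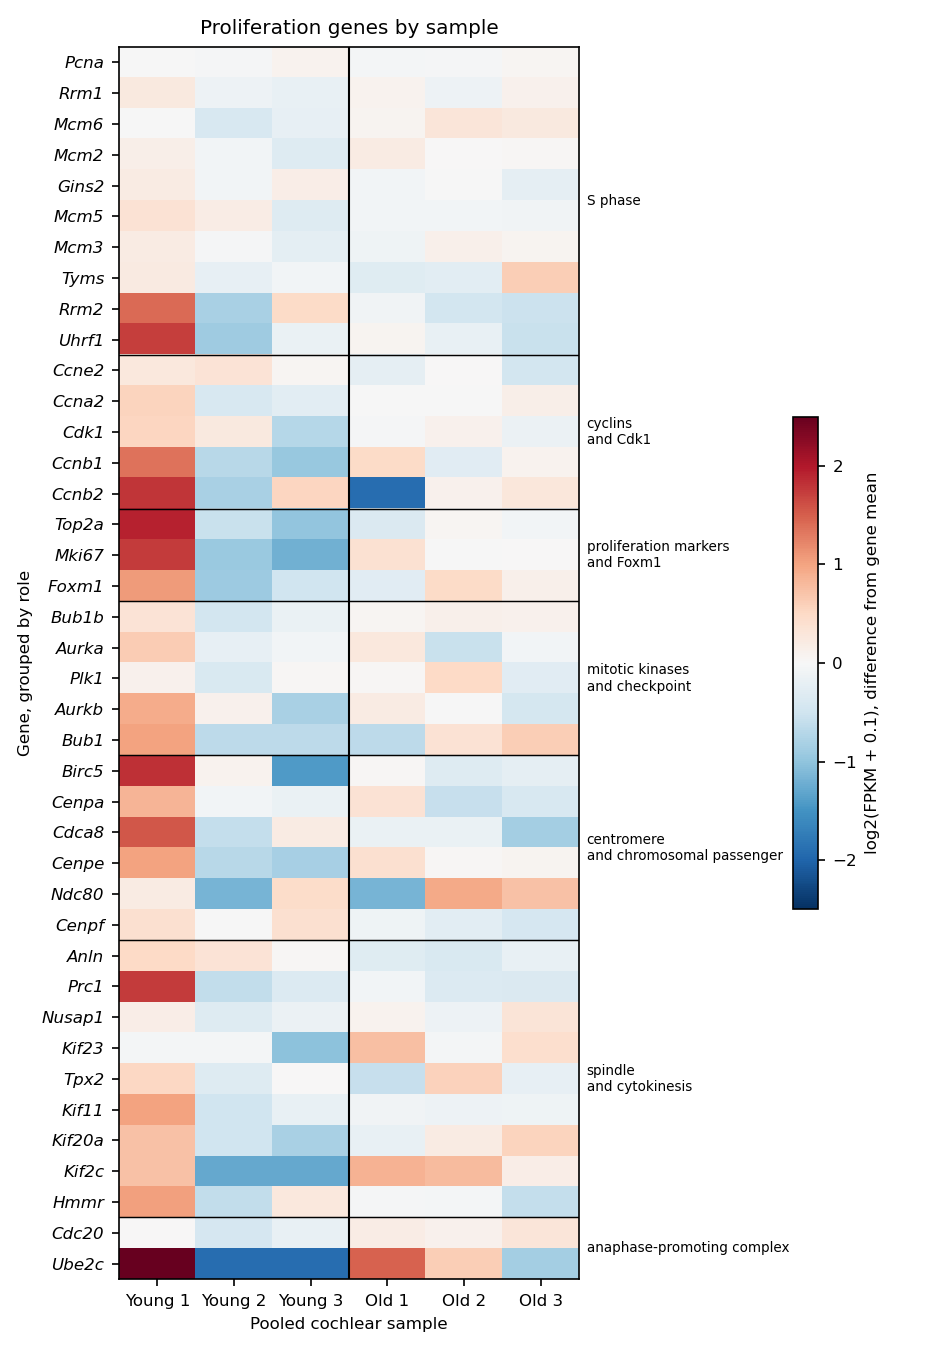
Difference of log2(FPKM + 0.1) from the mean over the 6 samples (colour scale) for the 40 members in rows, grouped by role and ordered by mean level within a role, in the 3 young and 3 old pooled samples in columns. Red, above the mean, prevails in the column of young sample 1, which holds the highest value for 27 of the 39 members tested, while S phase members with the highest levels are near white throughout.

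The genes of S phase had the highest levels of the set, and most of them differed little between samples. Pcna, the sliding clamp of DNA polymerases, was the most abundant member, with 56.8, 55.6 and 60.4 FPKM in the young and 55.0, 55.6 and 59.5 FPKM in the old samples. The groups overlapped throughout, the log2 change was -0.02 ± 0.07 (SE), and its 95% interval from -0.18 to 0.13 was the narrowest of the set. Annotated pseudogenes of Pcna, Tyms and Ccnb1 may share reads with these members. Rrm1, the large subunit of ribonucleotide reductase, had 10.8, 8.36 and 8.05 FPKM in the young and 9.72, 8.31 and 9.84 FPKM in the old samples, with young sample 1 the highest, and a log2 change of 0.04 (95% interval -0.29 to 0.38).

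None of the subunits of the MCM helicase, which unwinds DNA at replication forks, passed the threshold, and differences between subunits were not tested. Mcm6 had 5.93, 4.53 and 5.22 FPKM in the young and 6.27, 7.45 and 7.18 FPKM in the old samples, without overlap. Its log2 change was 0.41 ± 0.14 (SE), with an adjusted p of 0.114 (limma), so that it missed the threshold. Mcm2 had 6.22, 5.29 and 4.47 FPKM in the young and 6.42, 5.59 and 5.69 FPKM in the old samples, with overlap and a log2 change of 0.16 ± 0.15. Mcm5 had 6.56, 5.79 and 4.01 FPKM in the young and 4.81, 4.85 and 4.80 FPKM in the old samples. Its old values lay within the young range, and its log2 change was -0.15 ± 0.19. Mcm3 had 5.35, 4.55 and 3.91 FPKM in the young and 4.29, 5.05 and 4.88 FPKM in the old samples, again with overlap (log2 change 0.05 ± 0.16). Gins2, a subunit of the GINS complex that works with the helicase, had 6.01, 4.91 and 5.85 FPKM in the young and 4.92, 5.12 and 4.38 FPKM in the old samples (log2 change -0.21 ± 0.14, adjusted p = 0.371, limma).

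The remaining S phase members were lower and more variable. Tyms, the thymidylate synthase, had 2.09, 1.53 and 1.69 FPKM in the young and 1.41, 1.46 and 2.79 FPKM in the old samples. Its highest sum was in old sample 3, where part came from a transcript of 447 nt. That transcript had at most 0.137 FPKM in the other samples. The transcript of 3163 nt was highest in young sample 1, with 1.95, 1.53 and 1.58 FPKM in the young samples. It had 1.41, 1.46 and 1.69 FPKM in the old samples. Rrm2, the small subunit of ribonucleotide reductase whose protein is made in S phase, had 1.97, 0.341 and 0.976 FPKM in the young and 0.627, 0.467 and 0.431 FPKM in the old samples. Most of the Rrm2 value in young sample 3 was listed under a transcript of 781 nt. Young samples 2 and 3 rested on similar numbers for Rrm2, about 9.0 and 8.9 fragments. Uhrf1, which maintains DNA methylation at replication, had 2.29, 0.291 and 0.541 FPKM in the young and 0.653, 0.532 and 0.388 FPKM in the old samples. For both, young sample 1 was the highest, and the intervals of the log2 change were wide (-2.02 to 0.58 for Rrm2 and -1.97 to 1.07 for Uhrf1).

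The classical proliferation markers showed the split within the young group most clearly. Mki67 (ENSMUSG00000031004, chr7:135689784-135716361), which encodes the Ki-67 protein of dividing nuclei, had 1.43, 0.140 and 0.0982 FPKM in the young and 0.496, 0.351 and 0.356 FPKM in the old samples. These values correspond to about 186, 19 and 12 fragments in the young and 49, 53.9 and 46.9 fragments in the old samples. The old samples were close to each other, above young samples 2 and 3 and below young sample 1. Top2a (chr11:98992943-99024189), the topoisomerase that untangles sister chromatids, had 2.09, 0.292 and 0.195 FPKM in the young and 0.354, 0.503 and 0.450 FPKM in the old samples, in the same arrangement. Foxm1, the transcription factor of late cell cycle genes, had 0.678, 0.0991 and 0.164 FPKM in the young and 0.206, 0.416 and 0.305 FPKM in the old samples. Of its value in young sample 1, 0.38 FPKM was listed under a transcript of 641 nt that was at 0 in all other samples. Foxm1 rested on about 19, 6 and 6 fragments in the young and 10, 15 and 13 fragments in the old samples. With all samples, the log2 changes were 0.25 ± 0.78 for Mki67, -0.25 ± 0.74 for Top2a and 0.22 ± 0.60 for Foxm1, and the intervals covered 0 in each case (-1.57 to 2.07 for Mki67). For Mki67, Foxm1, Ccnb1 and Ube2c the log2 change was above 0 although the mean FPKM was lower in old mice (0.556 and 0.401 FPKM for Mki67), because it compares means of logarithms, in which young sample 1 weighs less. These 4 members are counted as higher by sign.

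**Figure D3:**
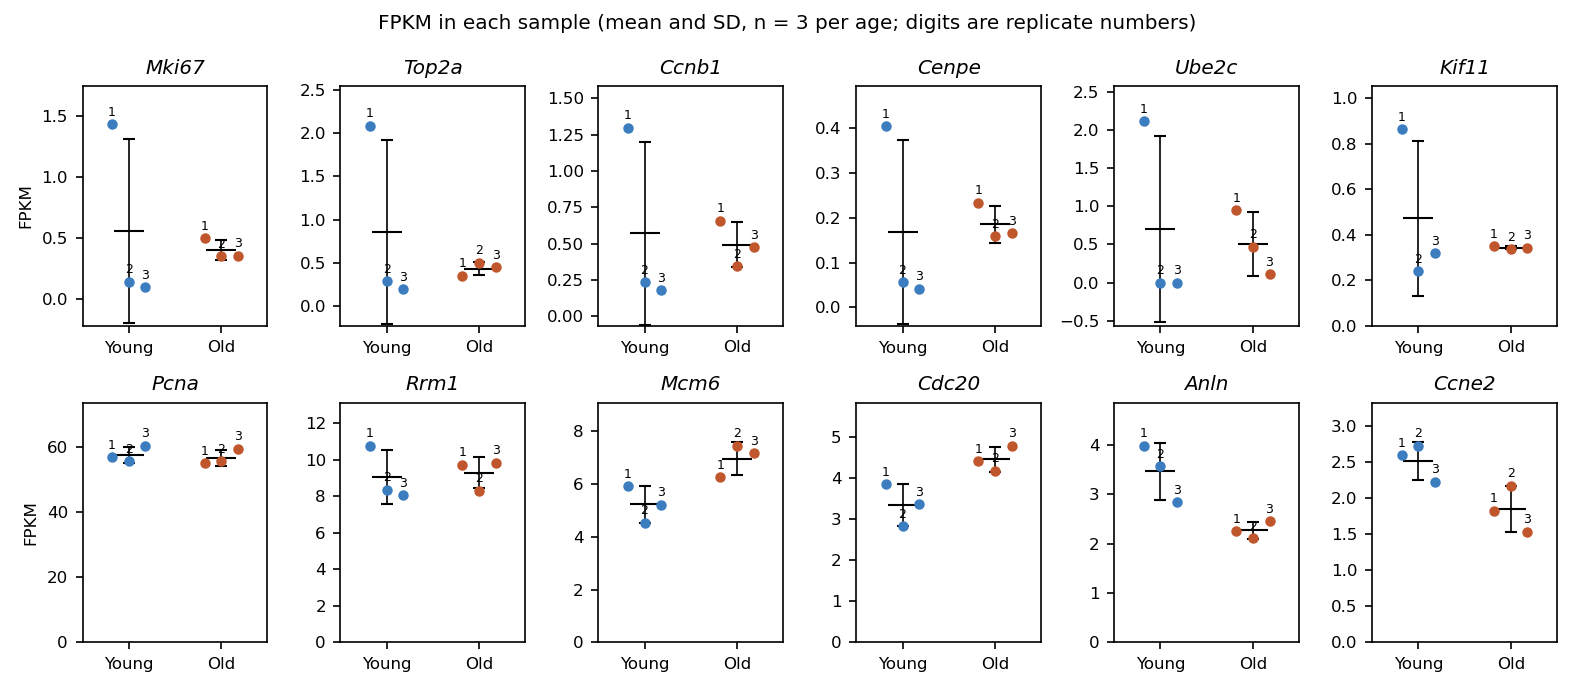
FPKM (y axis) of 12 members in each of the 3 young and 3 old samples, with digits for the replicate number and bars for mean and SD (n = 3 per age). In the upper row, young sample 1 lies above the other 5 samples for each gene (1.43 FPKM for Mki67). In the lower row, Mcm6 and Cdc20 lie higher and Anln and Ccne2 lower in all old samples, and none of them passed the threshold.

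Cyclins and their kinase were divided. Ccne2, a cyclin of the entry into S phase, had 2.60, 2.73 and 2.23 FPKM in the young and 1.83, 2.17 and 1.54 FPKM in the old samples, with no overlap and a log2 change of -0.44 ± 0.20 (adjusted p = 0.212, limma). Ccna2, the cyclin of S phase and G2, had 1.99, 0.970 and 1.08 FPKM in the young and 1.30, 1.30 and 1.47 FPKM in the old samples. Cdk1, the kinase that drives mitosis, had 1.54, 1.23 and 0.582 FPKM in the young and 0.995, 1.12 and 0.914 FPKM in the old samples. Both overlapped between the ages. The mitotic cyclin Ccnb1 had 1.30, 0.234 and 0.179 FPKM in the young and 0.658, 0.346 and 0.477 FPKM in the old samples, so that young sample 1 was again the highest and the other young samples the lowest. Its partner cyclin Ccnb2 had 1.20, 0.115 and 0.448 FPKM in the young samples, was listed at 0 in old sample 1, and had 0.304 and 0.355 FPKM in the other old samples.

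The kinases and checkpoint proteins of mitosis were mostly below 1 FPKM. Bub1b, a checkpoint kinase that delays anaphase, was the most abundant of them with 2.16, 1.20 and 1.49 FPKM in the young and 1.76, 1.86 and 1.84 FPKM in the old samples (log2 change 0.20 ± 0.25, adjusted p = 0.642, limma). Its related kinase Bub1 had 0.216 FPKM in young sample 1, about 8.99 fragments, was listed at 0 in young samples 2 and 3 and in old sample 1, and had 0.101 and 0.142 FPKM in old samples 2 and 3. Aurka, which acts at the spindle poles, ranged from 0.596 to 1.15 FPKM in the young and from 0.443 to 0.861 FPKM in the old samples. Aurkb, the kinase of the chromosomal passenger complex, ranged from 0.0520 to 0.408 and from 0.0960 to 0.207 FPKM, and Plk1, a kinase needed at several steps of mitosis, from 0.226 to 0.354 and from 0.249 to 0.498 FPKM. Of the 4 that were tested, none passed the threshold between the ages (limma), and Bub1 was not tested.

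Among the genes of the centromere and the chromosomal passenger complex, young sample 1 held the highest value in 5 of 6. Birc5 (survivin) had 3.12, 0.865 and 0.241 FPKM in the young and 0.828, 0.624 and 0.679 FPKM in the old samples. Cdca8 (borealin) had 1.01, 0.151 and 0.335 FPKM in the young and 0.238, 0.237 and 0.111 FPKM in the old samples. Both proteins belong to the passenger complex. Cenpa, the histone H3 variant of the centromere, had 1.47, 0.736 and 0.681 FPKM in the young and 1.02, 0.484 and 0.566 FPKM in the old samples. Cenpe, a kinesin of the kinetochore, had 0.404, 0.0567 and 0.0420 FPKM in the young and 0.233, 0.159 and 0.165 FPKM in the old samples. Cenpf, another large kinetochore protein, had 0.208, 0.133 and 0.207 FPKM in the young and 0.117, 0.0933 and 0.0750 FPKM in the old samples, with all old values lower (log2 change -0.53 ± 0.48, adjusted p = 0.519, limma). Ndc80, which links kinetochores to microtubules, was the exception, with 0.157, 0 and 0.209 FPKM in the young and 0, 0.332 and 0.271 FPKM in the old samples.

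The genes of the spindle and of cytokinesis held the lowest adjusted p of the set. Anln, an actin-binding protein of the cleavage furrow, had 3.98, 3.57 and 2.84 FPKM in the young and 2.26, 2.11 and 2.45 FPKM in the old samples. All old values were lower, and its log2 change was -0.58 ± 0.18 (95% interval -1.01 to -0.15, adjusted p = 0.0927, limma). Anln is also known as a septin partner in myelin. The summed level of 8 Schwann cell markers was 1229, 1127 and 793 FPKM in the young and 682, 713 and 696 FPKM in the old samples. Of the 8, 3 were lower in old mice at the threshold, against 3.81% of all genes. Both Anln and the Schwann cell sum were lowest among the young in sample 3. Among the old, sample 2 had the highest Schwann cell sum and the lowest Anln value. The part of these cells in the Anln value was not tested. Kif23, a kinesin of the central spindle, had 0.552, 0.552 and 0.230 FPKM in the young and 1.04, 0.547 and 0.803 FPKM in the old samples. Its log2 change of 0.75 ± 0.41 did not pass (adjusted p = 0.285, limma).

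The motor Kif11, which separates the spindle poles, had 0.862, 0.239 and 0.318 FPKM in the young and 0.350, 0.337 and 0.343 FPKM in the old samples, so that the old samples nearly coincided. Kif20a, a kinesin of cytokinesis, had 0.550, 0.176 and 0.122 FPKM in the young and 0.242, 0.349 and 0.474 FPKM in the old samples. Kif2c, which depolymerizes microtubules at centromeres, had 0.305 FPKM in young sample 1, was listed at 0 in young samples 2 and 3, and had 0.342, 0.323 and 0.174 FPKM in the old samples. Old sample 3, the lowest of the old samples, rested on about 5.99 fragments. Hmmr, a spindle assembly factor, had 0.334, 0.0400 and 0.155 FPKM in the young and 0.110, 0.106 and 0.0411 FPKM in the old samples. Nusap1 and Tpx2, which bind spindle microtubules, ranged from 1.04 to 1.5 and from 0.375 to 0.760 FPKM in the young and from 1.20 to 1.67 and from 0.301 to 0.796 FPKM in the old samples. Prc1, which bundles microtubules of the central spindle, had 4.19, 0.736 and 0.914 FPKM in the young and 1.12, 0.913 and 0.893 FPKM in the old samples. Of its value in young sample 1, 3.16 FPKM came from a transcript of 291 nt that was at 0 in the other 5 samples. Its transcripts of at least 500 nt rested on about 30, 20 and 25 fragments in the young and 27, 34 and 25 fragments in the old samples.

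The genes of the anaphase-promoting complex, the ligase that starts the exit from mitosis, had unlike values in the young group. Cdc20 (chr4:118432901-118437352), its activator, had 3.85, 2.83 and 3.36 FPKM in the young and 4.40, 4.17 and 4.78 FPKM in the old samples, with all old values higher. The log2 change was 0.41 ± 0.16, with an adjusted p of 0.154 (limma), and the adjusted p over the alternatives ranged from 0.125 to 0.349. Cdc20 was the most abundant member outside of S phase. Ube2c, the ubiquitin-conjugating enzyme of this complex, had 2.11 FPKM in young sample 1, was listed at 0 in young samples 2 and 3, and had 0.947, 0.472 and 0.108 FPKM in the old samples.

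The precision differed between the members with their level. Of the 40 members, 17 had a mean of at least 1 FPKM and 23 were below. The median SE of the log2 change was 0.190 for the former and 0.608 for the 22 tested members among the latter. For 14 members, all with a mean of at least 1 FPKM, the 95% interval lay within a 2-fold change in either direction, including Pcna, Rrm1, Mcm2, Mcm3, Mcm5, Mcm6, Gins2, Tyms, Ccna2, Cdk1 and Bub1b. For the other members, a 2-fold difference between the ages in at least one direction lay within the interval. In young sample 1, the ratio to the mean of young samples 2 and 3 had a median of 1.29 over the 10 S phase members (0.979 to 5.50) and of 2.08 over 27 other members with a ratio (1.05 to 12.0). The S phase members also had higher levels, with a median of 5.17 FPKM against 0.532 FPKM.

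Young sample 1 was singled out because it was high for these members, so that leaving it out must raise the change of most of them from young to old, and the values without it describe the other 5 samples and are no test. Of 38 members that were then tested, 28 were higher and 10 lower in old mice by sign. The share of all genes with a higher value, 50.6%, is not what no change would give for a sample picked in this way. Their median log2 change was 0.26, against 0.01 for all genes, and it was 0.24 without Kif2c and Ube2c, whose remaining young values were both at 0. It had the opposite sign without young sample 2 (-0.14) or young sample 3 (-0.18). Again 0 members passed in either direction (limma), whereas 2.9% of all genes were higher and 0.923% were lower. The unadjusted p was below 0.05 for 5 members, Mki67, Kif2c, Ube2c, Cdc20 and Mcm6, all higher in old mice, and the smallest adjusted p was 0.106 (limma, Mcm6).

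Of the members, 9 were lower in old mice with all samples and higher without young sample 1, namely Top2a, Cdk1, Aurka, Aurkb, Birc5, Kif11, Tpx2, Prc1 and Uhrf1, against 3.41% of all genes. Prc1 is counted here by its sum, most of which in young sample 1 was listed under the transcript of 291 nt. For Top2a the log2 change went from -0.25 to 0.65, and for Birc5 from -0.34 to 0.49. Mki67 went from 0.25 to 1.19, with an adjusted p of 0.190 (limma). All old values were above both remaining young values for 15 members, against 23% of all genes. Neither this share nor the 3.41% is what no change would give for a sample picked in this way. The S phase gene Pcna kept its log2 change near 0 (-0.02 and -0.03), and Anln went from -0.58 to -0.47.

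**Figure D4:**
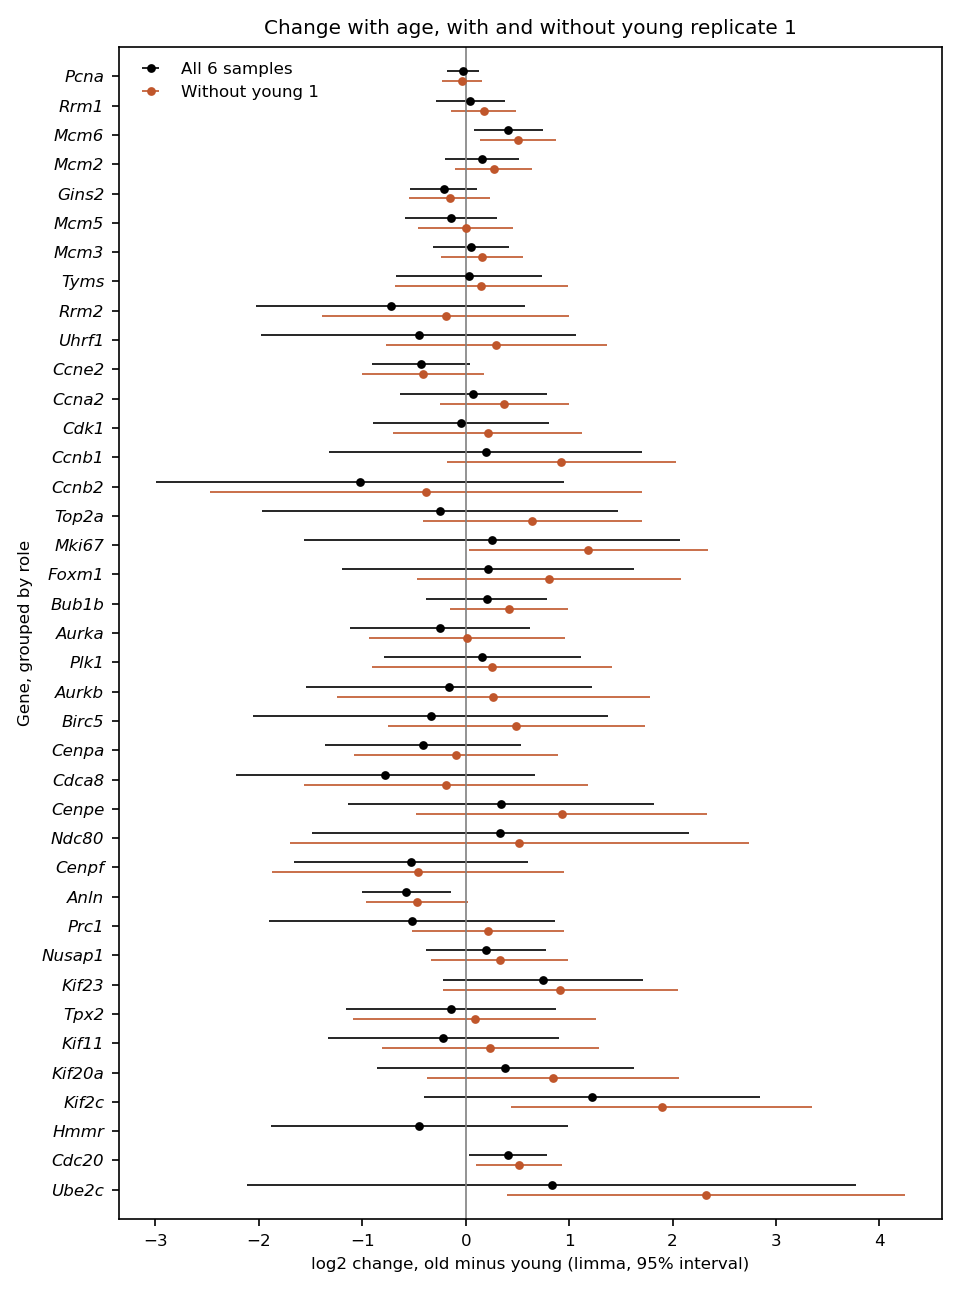
Log2 change from young to old (x axis, limma on log2(FPKM + 0.1), points with 95% intervals) for the 39 tested members, with all 6 samples in black and without young sample 1 in orange. The orange points lie to the right for 37 of 38 members, which the choice of the sample left out fixes for most of them, and most intervals cover 0 in both fits. Kif2c and Ube2c are listed at 0 in the remaining young samples, and their orange values depend on the added 0.1 FPKM.

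Other cell markers moved with young sample 1. The 12 markers listed for neutrophil precursors were all highest in this sample, with sums of 468, 14.7 and 34.5 FPKM in the young and 90.0, 58.3 and 21.3 FPKM in the old samples. Lcn2 was nearly tied, with 9.04 FPKM in young sample 1 and 8.87 FPKM in old sample 2. Most of the sum came from S100a8 and S100a9 in each sample (228 and 159 FPKM in young sample 1), so that it says little about the other genes of the list. The granule genes Elane, Mpo and Ctsg were at 0 in young samples 2 and 3, whereas they reached 2.39, 3.18 and 2.11 FPKM in young sample 1. In old sample 1 they had 0.891, 1.78 and 0.112 FPKM. Mpo had 0.122 FPKM in old sample 2, Ctsg had 0.104 FPKM in old sample 3, and their other old values were at 0. Prtn3, another granule gene of the list, had 3.58, 0 and 0.437 FPKM in the young and 0.545, 0.343 and 0.202 FPKM in the old samples. Of 14 erythroid markers, 12 were highest in young sample 1, and the list summed to 3340, 1826 and 3073 FPKM in the young and 1733, 1852 and 2654 FPKM in the old samples. The markers not highest there were Tfrc, highest in young sample 2, and Car2, highest in old sample 2. Both were left out of a further sum, together with the hemoglobins, which other cells or mature red cells also hold. By this choice, all 8 that remained were highest in young sample 1. They summed to 28.0, 8.06 and 14.3 FPKM in the young and 11.5, 8.24 and 10.3 FPKM in the old samples, most of it Alas2. Of these, Gata1 was at 0 in young samples 2 and 3 and in old samples 1 and 3. Of 8 tested markers of B cell precursors, 6 were highest in young sample 1, and the whole list summed to 38.6, 35.6 and 35.6 FPKM in the young and 37.4, 35.9 and 30.4 FPKM in the old samples, most of it Ebf1.

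Young sample 1 was also the highest for 7 of 10 osteoblast, 6 of 10 hair cell, 5 of 8 Schwann cell, 3 of 7 chondrocyte and 2 of 7 endothelial markers, and for 0 of 12 macrophage and 0 of 9 supporting cell markers. Of the 10 osteoblast markers, 8 had all old values below all young values, against 16.1% of all genes. The median log2 change of the 10 was -1.09, and 2 were lower at the threshold (limma), against 3.81% of all genes. The macrophage markers were higher in old mice for 10 of 12 at the threshold (limma), against 5.65% of all genes. Their sums were 227, 142 and 163 FPKM in the young and 835, 805 and 759 FPKM in the old samples. The summed macrophage level separated the ages, while the summed level of the members without Pcna did not, with 89.7, 55.1 and 53.6 FPKM in the young and 63.1, 61.7 and 63.2 FPKM in the old samples. The part of these cell types in the values of the members was not tested.

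**Figure D5:**
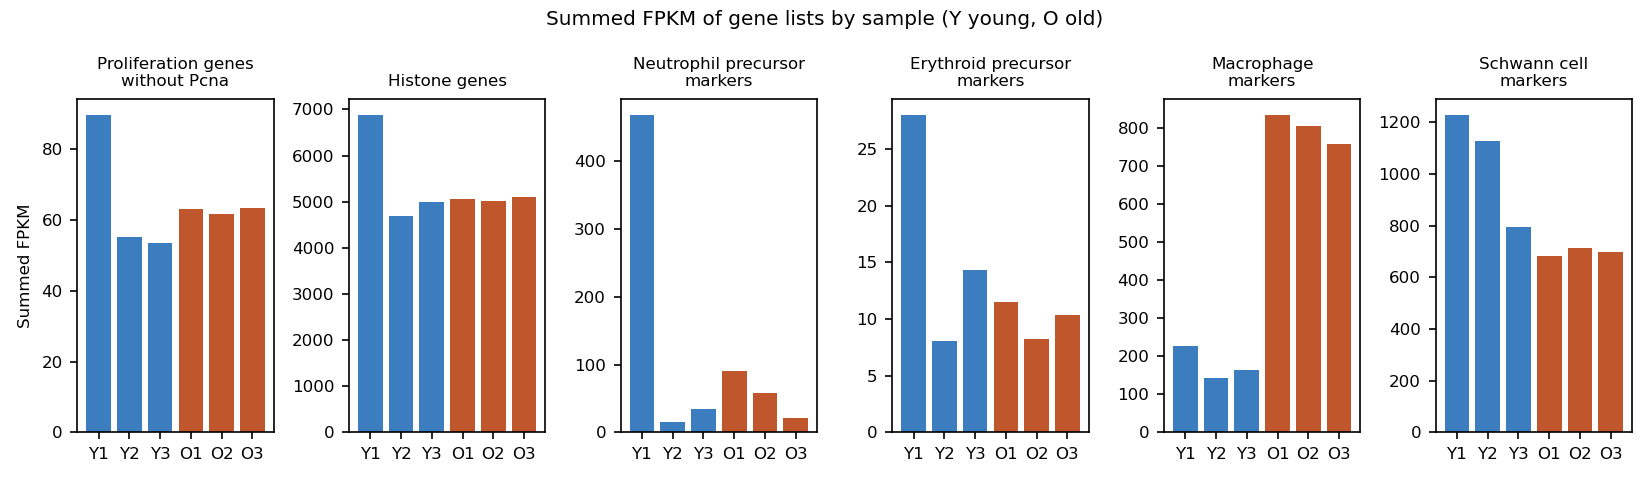
Summed FPKM (y axis, each panel with its own scale from 0) in the 3 young (Y1 to Y3) and 3 old (O1 to O3) samples for the members without Pcna, replication-dependent histone genes, and markers of neutrophil precursors, erythroid precursors, macrophages and Schwann cells. The first 4 panels are highest in young sample 1 (89.7 FPKM for the members, 468 FPKM for the neutrophil precursor list), and the macrophage panel is higher in all old samples. Most of the neutrophil precursor sum is S100a8 and S100a9. Pcna, left out of the first panel, was highest in young sample 3. The erythroid panel leaves out the hemoglobins and also Tfrc and Car2, which were not highest in young sample 1. With all genes kept, both sums were still highest there, at 146 FPKM for the members and 3340 FPKM for the erythroid list. The histone list was taken after its values had been seen.

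The other genes of the cell cycle, among them the MCM subunits Mcm4 and Mcm7 (named after their values were seen), were read from a list of 87 further genes, of which 80 were tested. Of these, 1 passed the threshold upward and 1 downward with age (limma), against 5.65% and 3.81% of all genes. The median log2 change of the 80 was -0.04. Both called genes were D cyclins, which act in G1 in answer to growth signals and are also expressed in cells that do not divide. Ccnd1 had 4.75, 3.28 and 4.89 FPKM in the young and 12.0, 11.3 and 11.1 FPKM in the old samples, with a log2 change of 1.41 ± 0.17 (adjusted p = 0.0111, limma). Ccnd2 had 13.5, 11.7 and 15.6 FPKM in the young and 8.71, 6.69 and 5.6 FPKM in the old samples, with a log2 change of -0.96 ± 0.18 (adjusted p = 0.0258, limma). The call for Ccnd1 was lost without old sample 2 (adjusted p = 0.0541, limma). The call for Ccnd2 was lost without young sample 1 (adjusted p = 0.0637), young sample 2 (0.0577), old sample 2 (0.0906) or old sample 3 (0.0669), and likewise without a filter on low values (0.0946) or a variance trend (0.0722), or with a replicate block (0.0533), each from limma. Its change was also below a 2-fold minimum. Mcm7 had all old values below all young values, with means of 19.2 and 13.9 FPKM, a log2 change of -0.48 ± 0.13 and an adjusted p of 0.0615 (limma). Mcm4 was also lower in all old samples, with an adjusted p of 0.204 (limma). Pttg1, the most abundant gene of the list and likewise named after its values were seen, was higher in all old samples. Its means were 72.7 FPKM in the young and 89.7 FPKM in the old samples. The log2 change was 0.31 ± 0.08, with an adjusted p of 0.0595 (limma). Of the 80 genes, 30 had their highest value in young sample 1, 37.5% against 13.1% of all genes. The groups did not overlap for 19, 10 higher and 9 lower in old mice, 23.8% against 33.7% of all genes.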

How the data were processed

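The authors prepared directional RNA libraries from pooled cochlear basilar membranes and deposited 1 FPKM value per transcript and sample. The submitters' processing notes name CASAVA 1.8, TopHat2 2.0.9, Cufflinks 2.1.1 and Cuffdiff 2.1.1 with GRCm38, and the annotation release is not given in the sources used here. Samples were grouped by their labels. The 56671 transcripts in the table were matched to GENCODE release M21. Of 55679 Ensembl transcripts, 55275 were found, and the 404 others were left out of the sums per gene. The 992 lncRNA transcripts of the authors were kept, each as a gene of its own, and count among the 25419 genes. The sums were not scaled further.

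Genes with a mean of at least 0.1 FPKM were compared on log2(FPKM + 0.1) by a linear model with age as the only term and moderated variances with a mean trend (limma 3.58.1, R 4.3.3). The Benjamini-Hochberg adjustment ran over 19465 genes, with a threshold of 0.05. A fold change on this scale understates the change of low genes. Values of single members were compared by a two-sided exact permutation test. The code was tested on simulated data. Cuffdiff, the test of the study, needs reads, which were not used here.

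Depth was estimated from the steps of low FPKM values of transcripts of 1000 to 4000 nt, of which 91.9 to 93.3% lay within 0.1 of a whole number against 20% by chance, and fragment numbers were computed for transcripts of at least 500 nt. They carry counting error only. Cuffdiff assigns fragments between transcripts by an estimate, so that a value of 0 can be a failed estimate. Tables and plots were made in Python 3.11.15 with pandas 2.3.3, numpy 2.4.6 and matplotlib 3.10.9.

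The members and all lists were chosen with earlier results of these data known. The members named in full are the 12 with the highest mean FPKM and those at or near 0, and the others are given with their values or range. Of the further cell cycle genes, those past the threshold are named, and Mcm4, Mcm7 and Pttg1 were added after their values were seen. Marker lists are given by counts and sums, with single genes named where they were at 0 in some samples, chosen after their values were seen. Ahsp, a listed erythroid marker, was not used here, and the values of another listed marker are not reported here. Alternatives were the pseudocount, the filter, the scaling, the variance trend, sample weights, a replicate block, the most abundant transcript of a gene, an unadjusted p, a 2-fold minimum and each sample left out.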

Additional observations from a re-analysis of the deposited data

How the results depend on the processing

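Under all 16 other settings of the fit, samples left out included, 0 members passed in either direction. The median log2 change of the members ranged from -0.18 to 0.26 with a sample left out. With an unadjusted p, 2 members were higher and 1 was lower. The change of 19 of the 39 members kept its sign in every setting that tested it. Outside of left-out samples, 12 members changed sign, none with a called value. With a pseudocount of 1, the log2 change was -0.050 for Mki67 and -0.0071 for Ccnb1. With quantile normalization it was -0.0035 for Mki67, -0.013 for Ccnb1, -0.011 for Ccna2, -0.028 for Plk1, -0.012 for Cenpe, -0.026 for Tyms and -0.036 for Foxm1. With sample weights it was -0.092 for Ccnb1, 0.040 for Tpx2, -0.032 for Rrm1 and -0.055 for Tyms. With the most abundant transcript in place of the sum it was 0.56 for Cdk1, -0.80 for Ccnb1, -0.020 for Ccna2, 0.62 for Aurkb, 0.22 for Tpx2, -0.14 for Tyms and 0.71 for Uhrf1. The cause of these changes was not tested.

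With each sample left out in turn, the log2 change ranged from -0.29 to 1.19 for Mki67, -0.80 to 0.65 for Top2a, -0.42 to 0.21 for Cdk1, -0.24 to 0.93 for Ccnb1, -0.11 to 0.37 for Ccna2, -0.44 to 0.012 for Aurka, -0.60 to 0.27 for Aurkb, -0.045 to 0.34 for Plk1, -1.13 to 0.49 for Birc5, -0.52 to 0.24 for Kif11, -0.46 to 0.12 for Tpx2, -0.96 to 0.22 for Prc1, -0.059 to 0.16 for Mcm3, -0.058 to 0.012 for Pcna, -0.034 to 0.17 for Rrm1, -0.27 to 0.19 for Tyms, -1.01 to 0.30 for Uhrf1, -0.16 to 1.00 for Ndc80 and -0.18 to 0.80 for Foxm1.

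The counts over all genes, 1099 higher and 741 lower, ranged from 46 to 949 and from 16 to 822 with a sample left out, and the lowest counts of both were without old sample 2. They were 211 and 105 without a filter, 284 and 126 without a variance trend, 2849 and 2554 with an unadjusted p, and 419 and 245 with a 2-fold minimum. The further cell cycle genes called higher (1) numbered 2 with sample weights, 2 with the most abundant transcript, 6 with an unadjusted p, and 0 to 2 with a sample left out. Those called lower (1) numbered 0 without a filter, 2 with a filter at 1 FPKM, 0 without a variance trend, 3 with sample weights, 5 with an unadjusted p, 0 with a 2-fold minimum, and 0 to 1 with a sample left out.

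The replicate numbers did not pair the samples, since deviations of samples with the same number correlated at 0.02, -0.04 and 0.01. With a replicate block, 440 genes were higher and 290 lower, 0 members passed in either direction, and 1 further cell cycle gene was higher and 0 were lower. The median SE was larger for members below 1 FPKM, and the SE of Mki67 was 0.78 with all samples and 0.48 without young sample 1.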

Other observations

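Replication-dependent histone genes, whose RNA rises in S phase, were taken as a list after their values had been seen. Of 62 tested genes, 50 were highest in young sample 1, and the sum over all 66 was 6884, 4696 and 4989 FPKM in the young and 5060, 5015 and 5102 FPKM in the old samples. Between the ages, 1 gene rose and 3 fell with age at the threshold (limma), where 9.45% of all genes passed in either direction. These genes are near-identical copies with short transcripts, so that their values are uncertain.

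Some members differed between samples in the transcript under which their level was listed, which the sum per gene does not show. The level of Aurkb in young sample 1 was listed under 1 transcript of 1950 nt (ENSMUST00000021277, 0.407 FPKM), and in the other 5 samples under another of 1831 nt (ENSMUST00000108666, 0.0519 to 0.207 FPKM). For Birc5, a transcript of 947 nt (ENSMUST00000081387) had 3.06 FPKM in young sample 1 and 0.174 to 0.711 FPKM in the other 5 samples, whereas a transcript of 3334 nt (ENSMUST00000093906) had 0.0559 FPKM in young sample 1 and 0.0678 to 0.360 FPKM in the others. For Uhrf1, the transcript ENSMUST00000001258 had 1.34 FPKM in young sample 1, was at or near 0 in young samples 2 and 3, and had 0.205 to 0.393 FPKM in the old samples. With low fragment numbers, the division between transcripts of a gene rests on an estimate.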
